A study of Mus musculus with 2 samples.

Results

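Cycling natural killer (NK) cells were the subset of CD45-sorted tumour leukocytes that carried NK receptor transcripts together with transcripts of the proliferation genes Mki67 and Top2a. A barcode was a member when it held at least 2 unique molecular identifiers (UMIs, each marking 1 captured RNA molecule) of Ncr1 and Klre1 together, 0 of the T cell receptor genes Cd3e and Cd3d, and at least 2 of Mki67 and Top2a together. Barcodes with under 200 detected genes or over 20% mitochondrial UMIs had been left out. This gave 392 members among 12252 kept cells, 236 of 6419 control and 156 of 5833 treated cells. Because measured UMIs chose the members, the levels of those genes and the contrast of members with other NK cells are descriptions and carry no test.

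The cells came from wild-type BALB/c mice bearing subcutaneous tumours of MFC, a mouse forestomach carcinoma line, and were digested with collagenase, depleted of red blood cells and sorted for the pan-leukocyte marker CD45. The control library was from mice given PBS. Thonzonium bromide, a cationic surfactant that is known to act on the proton pump vacuolar ATPase, was given to the mice of the treated library at 50 mg/kg. Dosing began on day 6, was repeated every other day, and the tumours were collected on day 10. The labels attach the same treatment text to both samples, so each group rests on the treatment label, and the number, age and sex of the mice in a library are not given in the sources used here. With 1 library per group there was no replicate, no test between groups was possible, and every interval below covers counting error only.

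NK cells are innate lymphocytes that kill stressed or transformed cells with perforin and granzymes, under the balance of activating receptors such as Ncr1 (NKp46) and inhibitory receptors such as the Ly49 family encoded by the Klra genes. Interleukin 2 and interleukin 15, read through Il2rb, drive their expansion, and tissue NK cells can divide on site. A dividing cell first makes nucleotides, licenses replication origins through the Mcm helicase and copies its DNA in S phase, then turns on the mitotic cyclins, kinesins and spindle checkpoint genes in G2 and M phase. The NK name and the proliferation name each rest on few transcripts per cell, so both were checked against other markers.

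Sequencing depth differed between the libraries. The control held 46348444 UMIs in 7803 barcodes and the treated library 52973138 in 6724, with medians of 4300 and 7259 UMIs per kept cell. Members were deep cells, with medians of 14626.5 UMIs in control (range 1410 to 49556) and 17576.5 in treated members (2942 to 48520), and summed to 3589798 and 2913558 UMIs. NK-gated cells with no Mki67 or Top2a UMI, called non-cycling NK cells here, numbered 691 and 783 and had medians of 6994 and 8053 UMIs. The libraries shared 14 barcodes, of which 3 touched members of either library and 0 were members in both. No doublet caller was run.

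The NK label was checked with 10 NK markers that the rule had not used, besides its own Ncr1 and Klre1. Each of the 10 was at 50 CPM or more (a gene's UMIs per 1000000 UMIs of the class) in both libraries, and they summed to 8133 and 9111 CPM. The T cell list summed to 807 and 856 CPM, most of it Trbc1 (611 and 611 CPM) and Trbc2 (157 and 218 CPM), which NK cells also transcribe, and only those 2 of its 10 genes reached 50 CPM. Markers of type 1 innate lymphoid cells, the lineage closest to NK cells, summed to 205 and 249 CPM, with 3 or more such UMIs in 44.5% and 50.6% of members. Most of that was Itga1 (106 and 102 CPM) and Inpp4b (44.6 and 62.8 CPM). Markers of types 2 and 3 summed to 57.4 and 55.9 CPM, nearly all of it Gata3 (57.4 and 55.6 CPM). Neutrophil markers summed to 22.6 and 19.9 CPM, B cell markers to 15.3 and 22.3 CPM and non-immune tumour markers to 6.96 and 0.686 CPM.

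Among markers of other lineages, 2 lists had the largest differences in CPM between the libraries inside the members. Monocyte or macrophage markers summed to 67.1 CPM in control and 348 CPM in treated members, with 10 or more such UMIs in 3 and 8 cells. Of the Lyz2 UMIs, 56.0% of the control and 32.5% of the treated ones lay in 1 cell. Erythroid markers summed to 5744 and 211 CPM, with 40.7% of the control value in 1 cell and the erythroid regulator Klf1 at 0 in both. Hbb-bs, which encodes a globin, had a UMI in 94.1% of control and 59.6% of treated members on all UMIs. B-gated cells, which do not make globin and were shallower, had 81.5% and 33.3%. Once every cell was thinned by random draw to 3000 UMIs, the shares were 53.3% and 14.2% of members. They were 72.0% and 26.4% of B-gated cells, so at equal depth the members had the lower shares. The part of these transcripts in the results below was not tested, except where a value without the marked cells is given.

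The proliferation threshold cut through a gradient. In the control, 68 members held exactly 2 Mki67 and Top2a UMIs, 43 held 3, 65 held 4 to 9 and 60 held 10 or more, while 184 NK-gated cells just outside held 1. The treated counts were 54, 17, 47 and 38, with 149 cells at 1 UMI. The summed level of 46 G2/M genes in control cells was 571 CPM at 0 UMIs, 694 at 1, 1054 at 2, 1061 at 3, 2467 at 4 to 9 and 7973 at 10 or more. The treated values were 545, 741, 831, 1652, 2852 and 9112 CPM. Cells just inside the threshold thus sat nearer to those just outside it than to the members with 10 or more UMIs. The S phase list was less steep, at 991 CPM at 0 UMIs and 4319 CPM at 10 or more in the control, and 937 and 3797 CPM in the treated library.

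**Figure D1:**
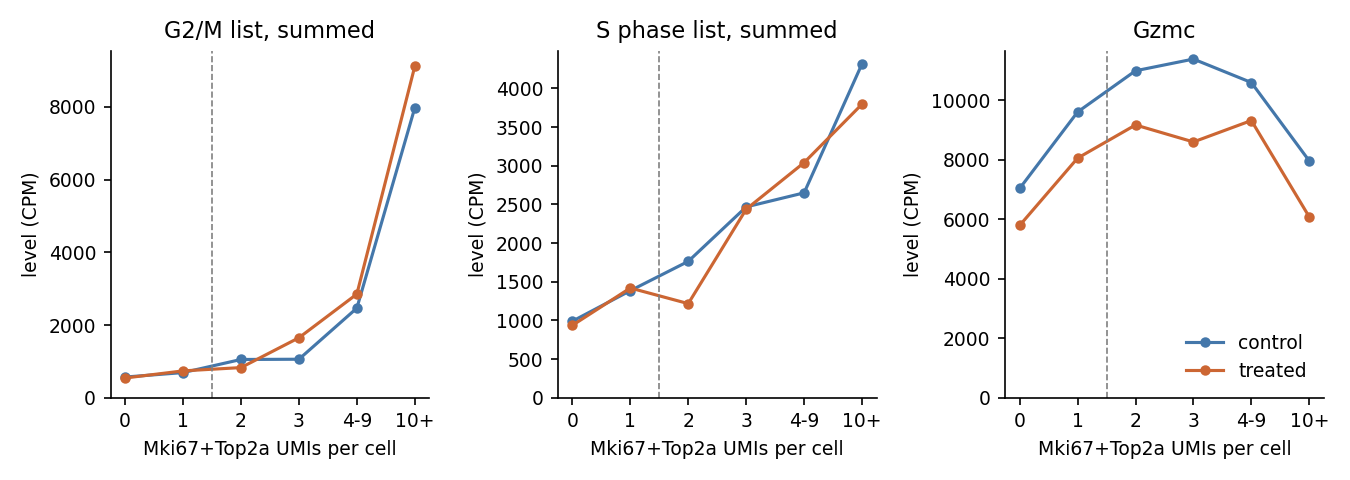
Summed level in CPM of the G2/M list, the S phase list and the granzyme gene Gzmc in NK-gated cells grouped by their Mki67 and Top2a UMIs (x axis), for the control (blue) and treated (orange) library, with the dashed line at the member threshold. The G2/M list is under 2000 CPM up to 3 UMIs in both libraries and is 7973 and 9112 CPM at 10 or more, while Gzmc is highest between 2 and 9 UMIs.

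The other thresholds were checked the same way. Among cycling cells with no Cd3 UMI, 52 control and 9 treated cells held 1 Ncr1 or Klre1 UMI and lay outside, and 20 and 2 members held 2. The control cells at 1 UMI had Gzmc at 955 CPM and the control members at 2 UMIs at 11097 CPM. In the treated library these values were 42.8 and 1825 CPM, the latter from the 2 members alone. Cycling cells that met the Ncr1 and Klre1 threshold but held 1 Cd3 UMI, and so lay outside the NK gate, numbered 49 and 28, with Gzmc at 11633 and 9190 CPM and Cd3g and Trac together at 24 and 38.3 CPM. Those with 2 or more Cd3 UMIs numbered 122 and 135, with Gzmc at 1872 and 1856 CPM and Cd3g and Trac at 1363 and 1094 CPM.

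The 6 genes named as markers of these cells behaved in 3 ways. Top2a (DNA topoisomerase II alpha, which untangles replicated chromosomes) and Mki67 (a coat protein of mitotic chromosomes) chose the members and are given as levels only. Control members held between 0 and 71 Mki67 UMIs with a median of 2, and treated members between 0 and 54 with a median of 2. Summed, Mki67 was at 308 and 275 CPM and Top2a at 301 and 320 CPM. Mki67 UMIs were found in 171 control and 107 treated members and Top2a UMIs in 201 and 130, so many members entered on 1 of the genes alone.

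The mitotic markers were carried by a minority of members. Cenpe, a kinesin-like motor that links kinetochores to microtubules, was detected in 107 of 236 control and 72 of 156 treated members, at 151 and 146 CPM. Birc5 (survivin, of the chromosomal passenger complex) was detected in 91 and 67 members, at 107 and 137 CPM. Ccnb2, a B-type cyclin that activates Cdk1 at mitotic entry, was detected in 60 and 58 members, at 72.1 and 105 CPM. Hmmr, a hyaluronan receptor that also binds the spindle, was detected in 55 and 43 members, at 57.4 and 71.7 CPM. The per-cell median of each of these 4 genes was 0 UMIs in both libraries. In non-cycling NK cells their levels were at most 8.88 CPM, the treated value of Cenpe.

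Car2, a carbonic anhydrase that interconverts carbon dioxide and bicarbonate, was of the third kind, since it was present in nearly all members and in most other NK cells. It was detected in 214 of 236 control and 150 of 156 treated members, with per-cell medians of 6 and 8 UMIs. Its level was 533 and 484 CPM in members against 357 and 347 CPM in non-cycling NK cells, or 1.49 and 1.39 times as much. When every cell was thinned to 3000 UMIs, Car2 was found in 68.4% and 66.5% of members, in 53.1% and 54.2% of non-cycling NK cells and in 9.79% and 2.90% of B-gated cells.

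The mitotic genes share known promoter elements, so the promoters of Ccnb2 and Hmmr, which hold both, and of Cenpe and Birc5, which differ from them, are shown. In the RefSeq promoters of build GRCm38.p6, which matches the mm10 build of the counts, the letters TTTGAA (the cell cycle genes homology region, CHR) and CCAAT (the CCAAT box bound by NF-Y) were searched on both strands, each motif on its own whether or not matches overlap. The sequences run 5′ to 3′ on the gene's strand from 150 bases before to 15 bases after the start, and capitals mark matches. A CCAAT box on the opposite strand reads ATTGG.
Ccnb2: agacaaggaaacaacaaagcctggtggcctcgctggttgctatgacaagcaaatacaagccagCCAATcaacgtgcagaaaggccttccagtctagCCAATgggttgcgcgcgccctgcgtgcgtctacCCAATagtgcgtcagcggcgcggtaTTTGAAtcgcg
Hmmr: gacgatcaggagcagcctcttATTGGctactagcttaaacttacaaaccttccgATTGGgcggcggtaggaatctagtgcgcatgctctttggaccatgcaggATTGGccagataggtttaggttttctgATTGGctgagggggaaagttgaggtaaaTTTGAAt
Cenpe: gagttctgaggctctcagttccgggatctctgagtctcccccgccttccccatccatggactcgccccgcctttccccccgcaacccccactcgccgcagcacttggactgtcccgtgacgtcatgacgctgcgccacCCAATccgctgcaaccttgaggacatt
Birc5: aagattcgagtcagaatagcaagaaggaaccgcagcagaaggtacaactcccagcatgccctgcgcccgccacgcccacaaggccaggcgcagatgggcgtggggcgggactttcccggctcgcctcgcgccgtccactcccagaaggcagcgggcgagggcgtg

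The windows lie at chr9:70421540-70421704 on the minus strand for Ccnb2, chr11:40733423-40733587 on the minus strand for Hmmr, chr3:135212413-135212577 on the plus strand for Cenpe and chr11:117849087-117849251 on the plus strand for Birc5. Ccnb2 held CCAAT at -87, -54 and -21 from the start and TTTGAA at 4. Hmmr held ATTGG at -129, -96, -47 and -20 and TTTGAA at 8. Cenpe held CCAAT at -12, and neither element was found in the Birc5 window. Over whole promoters of 250 bases before to 50 after the start, TTTGAA was found in 75% of 40 promoters of the G2/M list (39 of its 46 genes matched), in 16.2% of 37 promoters of the S phase list (30 of 40 genes matched) and in 17.9% of all 32851 promoters in the table. Both elements together were found in 62.5%, 13.5% and 6.95%. The E2F letters TTTCGCGC, TTTGGCGC or TTTCCCGC were found in 5% of G2/M, 35.1% of S phase and 1.84% of all promoters. A match is a string of letters and was not tested as a binding site.

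The members made up a smaller share of NK-gated cells in the treated than in the control library. They were 236 of 1111 control NK-gated cells, or 21.2% (exact Clopper-Pearson 95% interval 18.9 to 23.8%), and 156 of 1088 treated NK-gated cells, or 14.3% (12.3 to 16.6%). The treated-to-control ratio was 0.675 (0.548 to 0.830). NK-gated cells as a whole were 17.3% and 18.7% of kept cells. With 1 library per group the spread between mice is unknown, so this is a difference between these libraries.

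The treated cells were the deeper ones, and a deeper cell passes a threshold of 2 UMIs more easily, so the shares were also computed at equal depth. With the NK gate on all UMIs and each cell's chance of at least 2 Mki67 and Top2a UMIs computed over all draws of 3000 UMIs, the expected shares were 9.32% of 977 control and 4.83% of 1054 treated cells. With draws of 2000 UMIs they were 7.04% and 3.48%. In a single random draw of 3000 UMIs per cell, with the NK gate applied to the drawn UMIs as well, the shares were 9.33% (75 of 804, 11 members left out as shallower) and 3.52% (31 of 881, 1 left out). B-gated cells, with unthinned medians of 3843 and 3696 UMIs, gave 0.654% (1 of 153, interval 0.0165 to 3.59%) and 1.32% (5 of 379, 0.430 to 3.05%) in the same draw. The control NK interval (7.41 to 11.6%) lay above that of control B-gated cells. The treated NK interval (2.40 to 4.96%) overlapped that of treated B-gated cells in this draw, whose treated NK share was below the 4.83% expected over all draws. Whether the B-gated cells counted here were dividing was not tested, so their share is a comparison and not a measured background.

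Other definitions of a cycling cell kept the order of the libraries. At least 1 UMI of Mki67 and Top2a gave 37.8% and 28.0%, and at least 3 gave 15.1% and 9.38%. A gate on Cenpe, Ccnb2, Birc5 and Hmmr in place of Mki67 and Top2a gave 12.6% (10.7 to 14.7%) and 9.74% (8.05 to 11.7%), whose intervals overlap, with a ratio of 0.773 (0.595 to 1.00). In T-gated cells the cycling share was 10.1% (80 of 790) and 12.1% (98 of 807), and in the draw of 3000 UMIs it was 9.24% and 7.43%. Of all kept cells with at least 2 Mki67 and Top2a UMIs, 32.2% were members in control and 29.4% in treated cells.

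**Figure D2:**
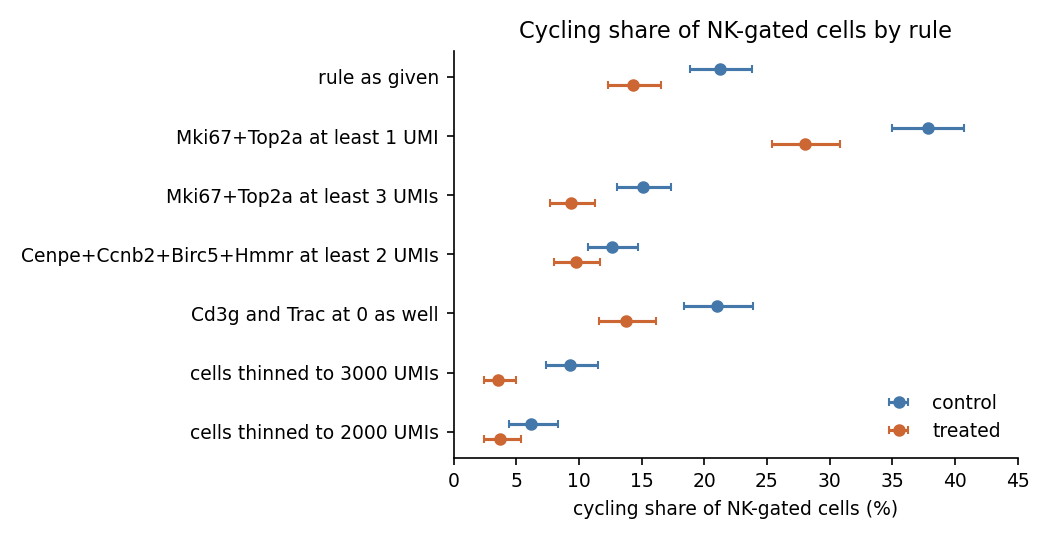
Share of NK-gated cells called cycling (x axis, %) under 7 rules (y axis), with points for the control (blue) and treated (orange) library and bars for exact 95% intervals that cover counting error only. The control point lies to the right of the treated point under each rule drawn, from 37.8% against 28.0% with at least 1 UMI to 6.18% against 3.71% after thinning to 2000 UMIs.

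Members differed from non-cycling NK cells in cell cycle genes, as the selection implies. Measured genes were those with at least 100 UMIs over the members of both libraries, a filter that leaves out genes low in members. All 38 measured of 46 G2/M genes were at or above 1.5-fold in members in both libraries, with median log2 ratios of 3.93 and 4.80. The share of all tested genes past that fold in a single library was not counted. The S phase list had 35 and 33 of its 36 measured genes past that fold, with medians of 1.87 and 1.88. Ccna2, the cyclin of S and G2 phase, was at 45.4 and 32.9 CPM in members against 0.871 and 0.392 CPM. Rrm2, the regulated subunit of ribonucleotide reductase, was at 51.8 and 63.5 CPM against 2.61 and 1.96 CPM. The Mcm helicase genes were less sharply set off, with Mcm6 at 155 and 131 CPM in members and ratios of 2.05 and 1.94.

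Outside the cell cycle lists, 93 of 3023 genes were past 1.5-fold above non-cycling NK cells in both libraries and 77 were below, with filters on level that treated both classes alike. Genes are named below from 1923 that passed filters on the members alone. These asked for at least 100 UMIs over the members and 50 CPM in members of a library. They also asked for a level at least that of all other kept cells, in the library where the members' level was higher. Such filters remove lower genes, and left 91 above and 9 below. The highest ratios were of cell cycle genes that the lists had not held. Pclaf, a partner of the replication clamp Pcna, was at 221 and 265 CPM in members, 36.2 and 54.9 times its level in non-cycling NK cells. Stmn1, which destabilises microtubules, was at 432 and 508 CPM against 28.2 and 29.4 CPM. The 12 named also held Cit, Spc24, Cks1b, Tk1, Lockd, Cenpw, Ccdc34, Incenp, Dtl and Gmnn. The last of these, geminin, blocks re-licensing of replication origins.

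The medians of some lists were also lower in members. Over all 6440 tested genes the median log2 ratio of members over non-cycling NK cells was -0.004 in control and 0.002 in treated cells. The share of all tested genes below that fold in a single library was not counted, so the counts below have no background. Of 20 interferon-stimulated genes 8 in control and 11 in treated cells were past 1.5-fold below non-cycling NK cells, with median log2 ratios of -0.51 and -0.59. Of 15 maturation and trafficking genes 8 and 7 were, with medians of -0.61 and -0.45. Among the 9 lower genes left by the filters on members was Gzma, a tryptase granzyme. It was at 2254 and 3121 CPM in members against 4232 and 5910 CPM, a ratio of 0.532 and 0.528. Klrb1c was at 231 and 314 CPM against 418 and 504 CPM. Bcl2, an inhibitor of apoptosis, was at 396 and 384 CPM against 650 and 611 CPM. Ifngr1, Fasl, Klra9, Sytl3, Peak1 and Satb1 made up the rest, with ratios between 0.526 and 0.658 over both libraries. The Klra genes are close paralogs whose reads can be split between copies, so the Klra9 value is uncertain.

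Effector genes outside that set were also unevenly placed. Ccl5, a chemokine of mature NK and memory T cells, was at 248 and 527 CPM in members and 1355 and 3295 CPM in non-cycling NK cells, a ratio of 0.183 and 0.160. Gzmb, the caspase-activating granzyme, was at 3079 and 3442 CPM, or 0.750 and 0.803 of the non-cycling level. Prf1 (perforin) was at 999 and 858 CPM, or 0.919 and 0.798. Gzmc, a granzyme of activated mouse lymphocytes, went the other way, at 10081 and 8237 CPM against 7038 and 5795 CPM, a ratio of 1.43 and 1.42. It was the most abundant cytotoxic gene of the members, found in 226 of 236 and 135 of 156, with per-cell medians of 79 and 99 UMIs and highest cells at 1729 and 932.

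Such shares have a background. After thinning to 3000 UMIs, Gzmc had a UMI in 92% of the control members and 80% of the treated, in 75% and 50.5% of non-cycling NK cells, and in 39.2% and 8.18% of B-gated cells, which do not make it. Whether free RNA or doublets gave those UMIs was not tested. By Mki67 and Top2a UMIs, Gzmc in control cells was 10994 CPM at 2, 11388 at 3, 10599 at 4 to 9 and 7963 at 10 or more. The treated values were 9173, 8602, 9322 and 6081 CPM, so in both libraries the lowest of these bins was that with most cycling UMIs.

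Members were then split by which phase list led. After thinning to 3000 UMIs, with 11 control and 1 treated member left out as shallower, S phase list UMIs exceeded G2/M list UMIs in 125 of 225 control members, or 55.6% (48.8 to 62.2%), and in 73 of 155 treated members, or 47.1% (39.0 to 55.3%). The G2/M list led in 88 (39.1%) and 71 (45.8%), and 12 and 11 were tied. The difference in the S-phase-led share was -8.46 points (normal-approximation interval -18.7 to 1.73), which includes 0. On all UMIs, not thinned, it was -11.3 points (-21.3 to -1.22). A call could rest on few UMIs: 60 control and 46 treated members lay within 2 UMIs of a tie. Among members with at least 10 UMIs of the lists together the shares were 50% of 144 and 48.9% of 90. The same comparison of lists put S phase ahead in 51.2% and 54.6% of non-cycling NK cells, so a leading S phase list alone does not mark a dividing cell.

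**Figure D3:**
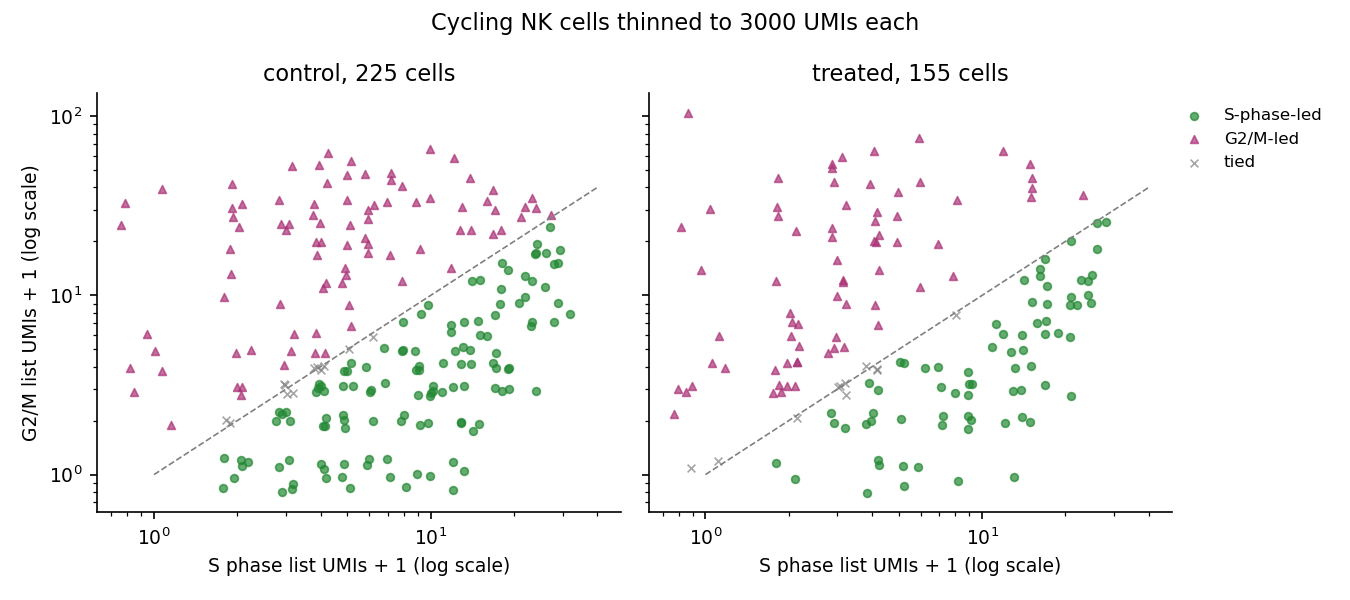
S phase list UMIs (x axis) against G2/M list UMIs (y axis), both plus 1 and on log scales, in each cycling NK cell after thinning to 3000 UMIs, with points spread by at most 0.25 for visibility, circles where S phase led, triangles where G2/M led and crosses for ties. The 225 control and 155 treated cells fill the same regions, and medians of 5 and 3 S phase UMIs and of 4 and 5 G2/M UMIs put many cells near the dashed line of equality.

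Some levels outside the phase lists differed between the S-phase-led and G2/M-led members in the same direction in both libraries, and others did not. Gzmb was at 3701 CPM in S-phase-led and 2182 CPM in G2/M-led control members, a ratio of 0.590 (0.564 to 0.616). In treated members it was at 4706 and 2037 CPM, a ratio of 0.433 (0.413 to 0.453). Prf1 had ratios of 0.622 (0.575 to 0.673) and 0.659 (0.603 to 0.719). Ccl5 had ratios of 0.388 and 0.464, but 26.8% of control and 15.9% of treated members' UMIs of it lay in 1 cell. A Ccl5 UMI was found in 45.6% of S-phase-led and 40.9% of G2/M-led control members, and in 45.2% and 35.2% of treated ones. These 3 effector genes were lower in G2/M-led members, while Gzmc was nearly level at 0.895 and 0.886. Gzmf had opposite ratios of 0.426 (0.366 to 0.495) and 1.21 (1.02 to 1.44), and Xcl1 had 1.03 (0.975 to 1.09) and 0.732 (0.686 to 0.781).

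Itga1, Eomes and Car2 were higher in G2/M-led members. Itga1 (CD49a, a collagen-binding integrin) had G2/M-led to S-phase-led ratios of 1.77 (1.43 to 2.18) and 1.74 (1.36 to 2.24). Eomes, a T-box factor of NK identity, had ratios of 1.24 and 1.29, and Car2 had ratios of 1.24 and 1.72. Klrd1 was level, at 1.03 and 1.06. Median depth moved with the split, at 17208 UMIs in S-phase-led and 11225.5 in G2/M-led control members and 19398 and 16380 in treated ones, and its part in these ratios was not tested. Of the genes that made the split, Mcm6 had ratios of 0.321 and 0.194 and Cdc20, which activates the anaphase-promoting complex, of 22.9 and 16.7.

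The treated and control members were then compared gene by gene. A gene was called past the fold when its CPM ratio was at least 1.5 or at most the inverse of that and its exact 95% interval excluded 1, among genes with at least 100 UMIs over both libraries. Of 6440 genes tested, 148 (2.3%) were higher and 105 (1.63%) lower in treated members, and the median log2 ratio of all tested genes was 0.01. The balance of calls depended on the setting: 58.5% of them were higher, but 45.9% (105 higher, 124 lower) when the member with most UMIs of each gene was left out of each library. It was 46.7% (100 and 114) without members that held 10 or more UMIs of monocyte, B cell, neutrophil or dendritic markers, 32.9% (74 and 151) in members with 4 or more Mki67 and Top2a UMIs, 44.2% (106 and 134) without the deepest 5% of members, 44.0% (178 and 227) with each member scaled alike, 39.1% (36 and 56) after thinning to 3000 UMIs and 48.1% (38 and 41) among genes with at least 200 UMIs. In non-cycling NK cells 163 of 8184 genes (1.99%) were higher and 100 (1.22%) lower. Of the members' higher genes 23 were also higher there, 15.5% of the members' and 14.1% of the non-cycling list, and of the lower genes 20, or 19.0% and 20%.

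Mitotic genes were mostly above 1. Of 38 measured G2/M genes, 32 had a treated-to-control ratio above 1. Past the fold, 1 was higher and 0 lower, against 2.3% and 1.63% of all tested genes. The median log2 ratio was 0.24 against 0.01 in non-cycling NK cells. With every member given the same weight the median was -0.08, so the direction depends on how cells are summed. Ccnb2 had a ratio of 1.46 (1.23 to 1.72), Birc5 of 1.28 (1.11 to 1.48), Hmmr of 1.25 (1.03 to 1.52) and Cenpe of 0.962 (0.845 to 1.09). Kif20a, a kinesin of cytokinesis, was the gene past the fold, at 16.7 and 26.1 CPM. Ccna2 was on the other side, with a ratio of 0.726 (0.558 to 0.939).

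S phase genes were mostly below 1. Of 36 measured, 29 had a ratio below 1. Past the fold, 2 were lower and 0 higher, against 1.63% and 2.3% of all tested genes. The median log2 ratio was -0.12 in members and also -0.12 in non-cycling NK cells. The pair past the fold were Ccne2 (cyclin E2, of the G1 to S transition) at 21.4 and 9.95 CPM, a ratio of 0.464 (0.292 to 0.720), and Cdc6, which loads the Mcm helicase, at 27.9 and 16.1 CPM, a ratio of 0.579 (0.400 to 0.827). Ccne1 went against its paralog, at 19.8 and 25.4 CPM with an interval of 0.915 to 1.80. Dut, which clears dUTP, was level at 245 and 245 CPM. Nucleotide synthesis genes had 14 of 17 ratios below 1 with a median of -0.14. The 1 lower past the fold, against 1.63% of all tested genes, was Ctps, CTP synthase, at 25.9 and 15.1 CPM.

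Cell cycle regulators and histones had few calls, where 2.3% of all tested genes were higher and 1.63% lower. Among 20 regulators the median was 0.03, and Cdkn3, a Cdk-inactivating phosphatase, was past the fold at 27.3 and 41.2 CPM. Cdkn1a (p21) was at 39.6 and 58.0 CPM, a ratio of 1.47 (1.17 to 1.85) in members, and at 0.677 in non-cycling NK cells. Among 13 histone and chromatin genes, Hist1h2ap was higher at 61.6 and 101 CPM, with 15.4% and 13.7% of its UMIs in 1 cell, and Hist1h1e lower at 338 and 220 CPM. Hist1h1e had a similar ratio in members (0.651) and non-cycling NK cells (0.684). Replicative histone transcripts mostly lack a poly(A) tail, so a library primed on that tail captures them poorly. The list median of 0.16 turned to -0.13 with each member scaled alike.

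NK receptor genes were measured in full and mostly above 1. Of 28, 21 had a ratio above 1. Past the fold, 2 were higher and 0 lower, against 2.3% and 1.63% of all tested genes. The median log2 ratio was 0.13 in members and 0.17 in non-cycling NK cells. Klra1, of the Ly49 family, was at 62.7 and 114 CPM, a ratio of 1.82 (1.53 to 2.16), from 35 of 236 and 30 of 156 members, and is uncertain for the same reason as Klra9. Fcgr3, the CD16 Fc receptor that triggers antibody-dependent killing, was at 29.0 and 47.4 CPM, a ratio of 1.63 (1.26 to 2.13), and macrophages also express it. Tyrobp (DAP12), the signalling adaptor of several of these receptors, was level at 1564 and 1595 CPM. Eomes was at 264 and 221 CPM, a ratio of 0.839 (0.758 to 0.928).

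Integrins of leukocyte trafficking gave the calls of the maturation list. Of its 15 measured genes 2 were higher and 0 lower past the fold, against 2.3% and 1.63% of all tested genes. Itgb2 (CD18) was at 109 and 167 CPM, a ratio of 1.53 (1.34 to 1.75), in 153 of 236 and 134 of 156 members. Itgax (CD11c) was at 48.2 and 76.2 CPM, a ratio of 1.58 (1.29 to 1.94). Non-cycling NK cells had ratios of 1.37 and 1.41 for these genes. Both are also myeloid genes, and the treated members held more myeloid marker UMIs, as given above. Cd69, an early activation and retention marker, was at 243 and 187 CPM. Kit, the stem cell factor receptor, was at 47.1 and 74.1 CPM, a ratio of 1.57 (1.28 to 1.94), in 95 and 83 members, while non-cycling NK cells had 0.938.

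Of the granzymes, Gzmc, Gzmd, Gzmf and Gzmg were lower in treated members and Gzma was higher, though not all past the fold. Gzmc (chr14:56231441-56234656, GRCm38) had a ratio of 0.817 (0.804 to 0.831) in members and 0.823 in non-cycling NK cells. Gzmd was at 921 and 532 CPM, a ratio of 0.578 (0.544 to 0.614), from 86 and 56 members, with 14.2% and 22.6% of UMIs in 1 cell. Gzmf was at 388 and 216 CPM and Gzmg at 91.9 and 35.4 CPM, both lower past the fold. These 2 rested on few cells: Gzmf on 34 and 22 members with 40.3% and 26.9% of UMIs in 1 cell, and Gzmg on 14 and 5 with 37.0% and 57.3% in 1 cell. Gzma was at 2254 and 3121 CPM, a ratio of 1.38 (1.34 to 1.43), and 1.40 in non-cycling NK cells. In all, 3 of 20 cytotoxic genes were lower past the fold and 0 higher, against 1.63% and 2.3% of all tested genes, with a median log2 ratio of 0.05. Gzmc to Gzmg are similar in sequence, so reads may be shared between them.

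Secreted factors differed by gene. Ccl5 had a ratio of 2.13 (1.96 to 2.31) in members and 2.43 in non-cycling NK cells, although members in either library held little of it: 102 of 236 and 63 of 156 had a UMI, and 26.8% and 15.9% of UMIs lay in 1 cell. Ifng, the main cytokine of activated NK cells, was at 66.3 and 94.4 CPM, a ratio of 1.42 (1.19 to 1.70), in 86 and 73 members, and at 0.949 in non-cycling NK cells. Xcl1, which attracts cross-presenting dendritic cells, was at 1570 and 1369 CPM. Of 9 measured, Ccl5 was the 1 past the fold, where 2.3% of all tested genes were higher.

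Cytokine receptor and JAK-STAT genes had calls in both directions. Il2ra (CD25, the inducible chain of the interleukin 2 receptor) was at 38.4 and 20.9 CPM, a ratio of 0.545 (0.396 to 0.741), but its log2 ratio turned to 0.12 after thinning. Il2rb, the shared chain for interleukin 2 and 15, was level at 977 and 1007 CPM. Pim1, a kinase gene induced by STAT5, was at 131 and 216 CPM, a ratio of 1.65 (1.46 to 1.86), and Socs3, a feedback inhibitor of STAT3, at 19.2 and 32.9 CPM, a ratio of 1.71 (1.25 to 2.37), with 24% of its treated UMIs in 1 cell. Il15ra and Stat5a were also lower and Il21r higher. Over the 26 genes 3 were higher and 3 lower past the fold, against 2.3% and 1.63% of all tested genes, and the median was 0.06.

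**Figure D4:**
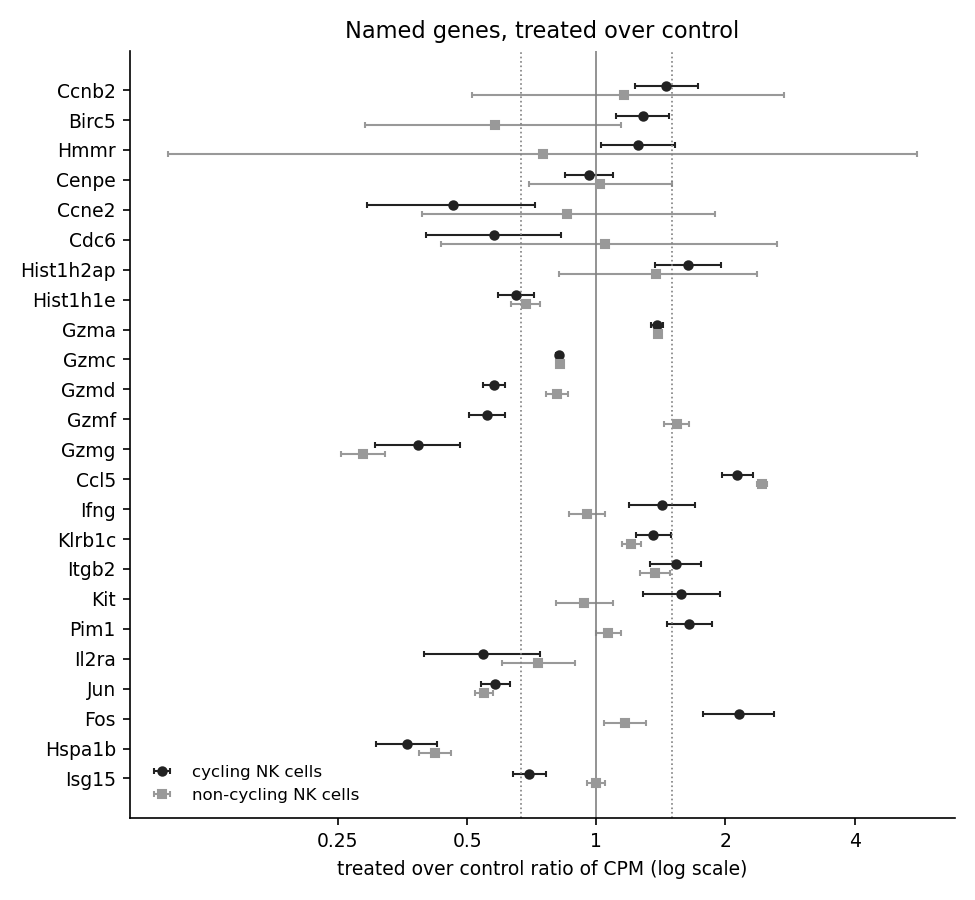
Treated-to-control ratio of CPM (x axis, log scale) for 24 named genes in cycling NK cells (black circles) and non-cycling NK cells (grey squares), with exact 95% intervals that cover counting error only and dotted lines at the 1.5-fold bounds. Gzma, Gzmc, Ccl5, Jun and Hspa1b lie on the same side of 1 in both classes, whereas Gzmf is at 0.557 in cycling and 1.54 in non-cycling cells. Gzmf UMIs were in 98 of 691 control and 39 of 783 treated non-cycling cells, and in 34 of 236 and 22 of 156 cycling cells.

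Growth and glycolysis genes were mostly below 1. Among 16 growth, amino acid and iron uptake genes 12 were below 1, with a median of -0.20 in both members and non-cycling NK cells. Srm, spermidine synthase, was the 1 lower past the fold at 65.5 and 42.2 CPM, against 1.63% of all tested genes. Eif4ebp1, a brake on cap-dependent translation, was the 1 higher at 18.1 and 28.5 CPM, against 2.3%. Of 14 glycolysis genes 12 were below 1, with a median of -0.09 in members and -0.21 in non-cycling NK cells. None was past the fold, Gapdh being at 1371 and 1369 CPM and Pkm at 607 and 490 CPM. Subunits of the vacuolar ATPase, the proton pump that thonzonium bromide is known to act on, were above 1 in 11 of 15, and 0 were past the fold. Their median was 0.14 in members and 0.07 in non-cycling NK cells, and the ratio of their summed CPM was 1.09 in both classes. Atp6v1d had the ratio 1.27 (1.05 to 1.54) and Atp6v1f 0.981 (0.885 to 1.09).

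Stress genes had the most calls for their number. All 10 heat shock chaperones were below 1 and 4 were lower past the fold, against 1.63% of all tested genes, with a median log2 ratio of -0.32 in members and -0.36 in non-cycling NK cells. Hspa1b was at 188 and 68.0 CPM, a ratio of 0.362 (0.307 to 0.425), from 103 of 236 and 36 of 156 members with 23.7% of the treated UMIs in 1 cell, and Hspa1a, its near-identical copy, at 108 and 41.2 CPM. Reads of that pair may be split between the copies. The abundant Hsp90ab1 was at 2756 and 2436 CPM.

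Immediate early genes were split. Of 16, 5 were higher and 1 lower past the fold, against 2.3% and 1.63% of all tested genes, with a median of -0.03. Jun was lower at 559 and 325 CPM, a ratio of 0.581 (0.538 to 0.628) and 0.548 in non-cycling NK cells. Fos was higher at 48.5 and 104 CPM, with 26.7% of the treated UMIs in 1 cell, but without members that held 10 or more UMIs of other leukocyte markers its log2 ratio was -0.98. Atf3 was at 16.2 and 35.0 CPM from 25 and 20 members, with 46.6% and 25.5% of UMIs in 1 cell.

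Interferon-stimulated genes showed no common direction, with 9 above and 11 below 1 and a median of -0.03. Isg15 was at 379 and 265 CPM in members, a ratio of 0.698 (0.638 to 0.763), while non-cycling NK cells had 1.00. Rsad2 was the 1 past the fold, at 98.6 and 150 CPM, where 2.3% of all tested genes were higher. It had 37.8% of treated UMIs in 1 cell and a log2 ratio of -0.35 without members bearing other leukocyte markers.

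Further genes completed the extremes. Ide, a metalloprotease that degrades insulin, was at 128 and 55.3 CPM, a ratio of 0.431 (0.358 to 0.517), in 167 of 236 and 90 of 156 members, and at 0.510 in non-cycling NK cells. Btaf1, a remodeller of TATA-binding protein, was at 52.9 and 26.8 CPM and Zbtb32, a repressor linked to NK proliferation, at 116 and 69.0 CPM. Atm, the kinase of the double-strand break response, was at 69.9 and 46.3 CPM. On the other side H2afz, a histone variant of the chromatin list, was at 987 and 1400 CPM and S100a10 at 854 and 1208 CPM, neither past the fold. The remaining genes named by the rule were Smim4, Midn, Atraid and Cd9 with ratios between 1.41 and 1.48, and Ccdc88b, Myo10 and Fchsd2 between 0.607 and 0.65.

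**Figure D5:**
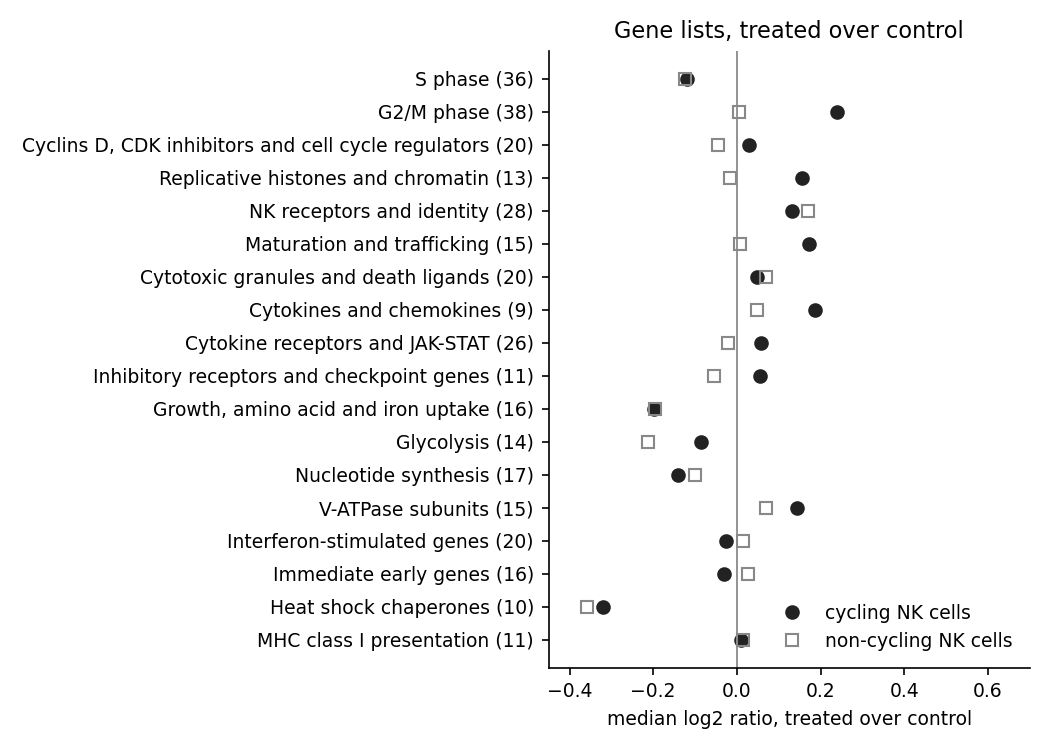
Median log2 ratio, treated over control (x axis), of the measured genes of 18 lists (y axis, number measured in brackets) in cycling NK cells (filled circles) and non-cycling NK cells (open squares). The G2/M list is at 0.24 in cycling cells (-0.08 with each member scaled alike) and 0.01 in non-cycling cells, and the heat shock list is lowest in both, at -0.32 and -0.36.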

How the data were processed

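Single-cell RNA was measured in 1 control and 1 treated library of CD45-sorted tumour cells. The authors deposited UMI counts, 1 matrix a library with 32285 genes, made with Cell Ranger 6.1.2 per the file headers. Seurat 3.0, R 3.5.3 and the mm10 build appear in the submitters' processing notes, with no role given. UMIs of the members were summed per library and scaled to CPM, so deep cells weigh more. Ratios have exact conditional binomial intervals and shares exact Clopper-Pearson intervals, at 95%. The ratio intervals alone were checked on simulated counts. Those counts were drawn independently for each gene, so that check cannot speak to UMIs concentrated in few cells. PCR duplicates are collapsed by UMIs, but cells of 1 library share mice, sort and droplet run, so intervals cover counting error only. Thinning drew UMIs without replacement. Python 3.11.15, numpy 2.4.6, scipy 1.17.1 and pandas 2.3.3 were used.

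The members and gene lists were chosen with earlier results of these data known. Named genes were the rule and marker genes, the 12 highest and 12 lowest ratios among genes with at least 100 UMIs over both libraries, 50 CPM in a library, an interval excluding 1 and a level at least that of other kept cells, up to 5 genes of each list, and up to 12 genes on each side of the contrast with non-cycling NK cells. Left out were haemoglobin, ribosomal protein and mitochondrial genes, antigen receptor segments, Xist, Y-linked genes and unnamed gene models. Other genes printed were chosen after their values were seen. Alternatives varied the gates, depth, scaling and gene filter. Possible doublets were treated only by leaving out members with other leukocyte markers or the deepest 5%.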

Additional observations from a re-analysis of the deposited data

Results flagged for a closer look

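In the members 105 genes were lower past the fold, of which 99 were measured in non-cycling NK cells of the same libraries. Of these, 3 were past the fold in the opposite direction there, where 1.99% of all 8184 tested genes were higher. Of the 148 genes higher in the members, 0 were lower past the fold there, against 1.22% of all tested genes. The difference was not tested across samples, since each group is 1 library. Egr3, an early response factor, had a log2 ratio of -1.05 in members (36.2 and 17.5 CPM) and of 0.65 in non-cycling NK cells. It was found in 19 control and 10 treated members, with 60.8% and 45.1% of UMIs in 1 cell. Gzmf had -0.84 in members (388 and 216 CPM) and 0.62 in non-cycling NK cells, with 40.3% of control and 26.9% of treated UMIs in 1 member. Apoe, a lipoprotein gene of macrophages, had -0.76 in members (33.1 and 19.6 CPM) and 0.67 in non-cycling NK cells, with 69.7% of its control UMIs in 1 member.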

How the results depend on the processing

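No paired analysis was possible because each group is 1 library. The same design leaves no replicate to leave out. The treated-to-control ratio of the cycling share stayed below 1 under the 15 alternatives tried. It was 0.377 with all cells thinned to 3000 UMIs, 0.375 with only the cycling genes thinned in that draw, and 0.519 and 0.493 as the expectation over all draws of 3000 and 2000 UMIs, which were added after seeing the data, as were the settings on other leukocyte markers, on the member with most UMIs and on members with 4 or more cycling UMIs. Thinning to 2000 UMIs gave 0.600 (0.353 to 1.01). The counts of genes past the fold, 148 higher and 105 lower, became 36 and 56 after thinning, 246 and 170 with at least 50 UMIs per gene and 38 and 41 with at least 200. The lower count was 227 with each member scaled alike, and the higher count 74 in members with 4 or more cycling UMIs. The difference in the S-phase-led share ranged from -11.3 to -1.11 points.

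Signs that turned, as log2 ratios, were those of Pclaf (-0.039), the G2/M list (-0.081) and the histone list (-0.13) with each member scaled alike. After thinning they were Car2 (0.051), Myo10 (0.0071), Il2ra (0.12), Slc16a3 (-0.34) and Psmb9 (-0.17). With Cd3g and Trac also at 0 they were Slc16a3 (-0.16) and Pclaf (-0.050), and without the deepest 5% Spp1 (0.090) and Rsad2 (-0.065). Without members bearing other leukocyte markers they were Ctsc (-0.13), Rsad2 (-0.35) and Fos (-0.98), and in members with 4 or more cycling UMIs Spp1 (0.060), Npm1 (0.055) and Hspa8 (0.028). The cause was not tested. Of the other gene values 802 were close to the main value and 166 moved beyond its counting error. Of the other list medians 120 stayed within 0.1 of the main value and 22 moved further. Depth limits genes under 100 UMIs, which were not compared.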

Other observations

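MHC class I genes, whose products NK cells read on other cells and also carry themselves, were near level in the members. Of 11 measured, 6 were above and 5 below 1, 0 were past the fold and the median log2 ratio was 0.01. B2m, the shared light chain, was at 3579 CPM in control and 3602 CPM in treated members, and the class Ib gene H2-Q7 at 762 and 957 CPM. Inhibitory and checkpoint receptor genes had 0 of 11 past the fold and a median of 0.06. Tnfrsf9 (4-1BB) was the most abundant of them, at 404 and 420 CPM, and Ctla4 was at 21.7 and 32.3 CPM.

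Spp1 (osteopontin), a secreted phosphoprotein, had UMIs in 197 control and 124 treated members. It was at 1395 and 1274 CPM there and at 867 and 857 CPM in non-cycling NK cells, a ratio of 1.61 and 1.49. One treated member held 14% of the treated UMIs.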
